A study of Sus scrofa with 48 samples.

Results

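The fatty acid desaturases SCD, FADS1 and FADS2 and the elongase ELOVL6 were followed in liver and fat of pigs. They were taken as the probe sets whose gene symbol in the array annotation is 1 of these names, which gave 4 of 6765 genes with a symbol of their own, and 8 of the 23999 probe sets tested. SCD (gene ID 396670) has 1 probe set, FADS1 (444995) has 1, FADS2 (444997) has 2 and ELOVL6 (100312970) has 4. Where a gene has several they are lettered by mean signal, brightest first: FADS2 a and b, and ELOVL6 a to d. The study put RNA from 24 Yorkshire gilts (young female pigs) on 48 Affymetrix arrays, so that each gilt has a liver array and a fat array. The gilts were 6 months old and from a line bred for low residual feed intake, so these traits are shared by all groups. They were homozygous for D298, the wildtype form of the melanocortin 4 receptor MC4R, or for the variant form N298. Within each genotype they were fed freely or fasted for 3 days, which gives 6 gilts for each combination. MC4R is a receptor of the brain known for its part in the control of food intake. The comparisons ask how feeding state, receptor genotype and tissue bear on these genes.

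Cells make saturated fatty acids first, chiefly palmitate, and then modify them in the membrane of the endoplasmic reticulum. ELOVL6 lengthens palmitate towards stearate, and SCD puts a double bond into stearate and palmitate, which gives oleate and palmitoleate, the main monounsaturated acids of stored fat. FADS2 and FADS1 act in turn on the essential polyunsaturated acids of the diet on the way to arachidonate and related long-chain acids, with an elongation between them. In the RefSeq gene table of the pig FADS1 and FADS2 are neighbours, with FADS3 on the far side of FADS2. In textbook accounts insulin and the factor SREBP-1c raise these genes in the fed state, and polyunsaturated acids lower them. In the pig, fat is a main site of fatty acid synthesis.

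The tissue labels were checked against marker genes. In liver 13 of 13 hepatocyte markers exceeded the array's median signal on every array, and in fat 8 of 10 adipocyte markers did. In 4 fat arrays, 3 from fed and 1 from fasted gilts, the mean log2 signal of the hepatocyte markers was 9.53 to 9.77, against 5.34 to 6.40 in the other 20 fat arrays and 14.59 to 15.11 in liver. Muscle markers also varied between fat arrays, with list means from 4.02 to 12.92 on the log2 scale. Deposited signals had been scaled alike, and array medians were 122 to 149 in liver and 159 to 192 in fat. Tests of the 8 probe sets for fasting, genotype, their interaction and the tissue difference in response were rerun without those 4 arrays. Such results are given where a call differs. For other comparisons in fat no fit without those arrays is given.

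In fasted liver SCD and FADS1 fell, FADS2 gave a smaller decline that did not pass the test, and no ELOVL6 probe set fell. In fasted fat SCD and the 4 ELOVL6 probe sets fell on every comparison of matched gilts, and FADS1 fell less than SCD. Counted by probe set, 2 of 8 were called lower in liver and 0 higher, where 2.20% of all probe sets were called lower and 2.27% higher. In fat 6 of 8 were called lower and 0 higher, where 10.1% of all were called lower and 15.1% higher. A probe set was called when its limma p, adjusted over the 23999, was under 0.05. The median log2 change of the 8 was 0.03 in liver and -1.61 in fat, against -0.04 and 0.08 over all probe sets. Since 4 of the 8 belong to ELOVL6, these counts and medians weigh that gene most, and the liver median hides the falls of SCD and FADS1.

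**Figure D1:**
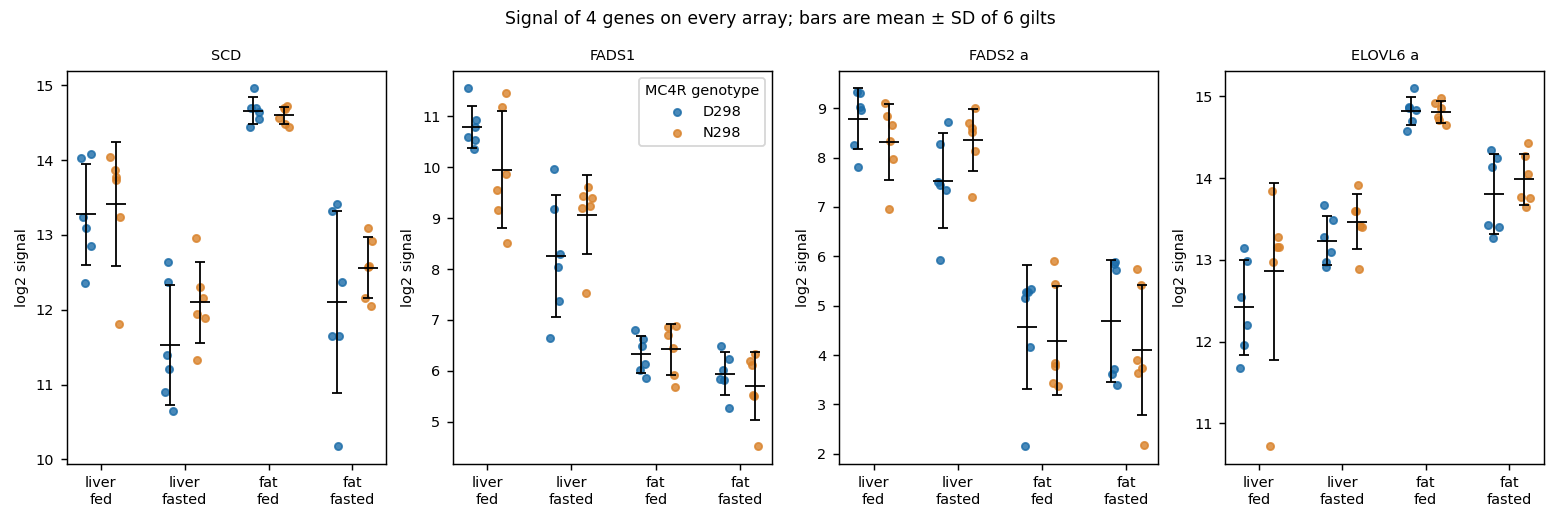
Log2 signal on every array for the brightest probe set of each gene, by tissue and feeding state, with D298 gilts in blue and N298 gilts in orange; each point is 1 gilt and bars are the mean ± SD of 6. In fat the fed points of SCD (14.44 to 14.96) and ELOVL6 (14.58 to 15.10) lie above all fasted points, while in liver the fed and fasted points of all 4 genes overlap.

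SCD makes monounsaturated acids and was called lower in both tissues, under 15 alternatives in liver and 16 in fat. In liver its log2 signal was 12.36, 13.17 and 14.08 (lowest, median, highest) in fed and 10.65, 11.30 and 12.63 in fasted D298 gilts. In N298 gilts it was 11.81, 13.76 and 14.04 fed and 11.33, 12.05 and 12.96 fasted. Fed and fasted livers therefore overlapped, with 5 of 12 fasted values below the lowest fed value, which came from fed N298 gilt number 5. Over both genotypes SCD fell by 1.53 ± 0.26 (SE of the log2 change, 12 fasted against 12 fed gilts), or 2.89-fold, with a limma adjusted p of 0.000811. It was lower in 10 of 12 pairs of gilts of 1 genotype and replicate number. Without that fed gilt SCD fell by 1.68 in liver. RNA came from whole tissue, so fewer cells of a type and less RNA per cell cannot be told apart here or below.

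In fat SCD was uniformly high in fed gilts and uneven in fasted ones. Its log2 signal was 14.44, 14.66 and 14.96 in fed and 10.18, 12.02 and 13.42 in fasted D298 gilts. In N298 gilts it was 14.44, 14.62 and 14.72 fed and 12.05, 12.57 and 13.09 fasted. No fasted value reached a fed one, and the fasted D298 gilts were the most spread, with an SD of 1.21 against 0.18 for the fed gilts of that genotype. SCD fell by 2.30 ± 0.22 (SE) on the log2 scale, a 4.92-fold fall (limma adjusted p = 1.57e-07), and was lower in 12 of 12 pairs. It ranked 30 among all falls of the array by size. In fed fat its mean signal stood at percentile 99.9 of all probe sets, and whether it still rises with RNA at that level was not tested.

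ELOVL6 lengthens palmitate, and it responded in fat without a called change in liver. Its brightest probe set, a, had log2 signals in fat of 14.58, 14.84 and 15.10 in fed and 13.26, 13.78 and 14.35 in fasted D298 gilts. In N298 gilts these were 14.65, 14.80 and 14.98 fed and 13.64, 13.91 and 14.43 fasted. Fed and fasted fat did not overlap, and this probe set fell by 0.92 ± 0.12 (SE), or 1.89-fold (limma adjusted p = 8.60e-06, lower in 12 of 12 pairs).

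The other 3 ELOVL6 probe sets gave a larger fall. ELOVL6 d had log2 signals in fat of 12.21, 13.50 and 13.83 in fed and 9.22, 10.58 and 11.51 in fasted D298 gilts. In N298 gilts they were 12.75, 13.55 and 13.88 fed and 10.38, 11.23 and 11.57 fasted. It fell by 2.56 ± 0.24 (SE), which is 5.88-fold and rank 18 by size among falls (limma adjusted p = 1.92e-07). ELOVL6 c changed by -2.43, from 12.41 to 13.97 in fed to 9.66 to 12.05 in fasted fat. ELOVL6 b changed by -2.40, from 12.57 to 14.04 to 10.05 to 12.28. For each of the 4 probe sets the fed and fasted ranges were separate, as for SCD, so 12 of 12 pairs were necessarily lower. The share of all probe sets with such separate ranges was not counted. The size of the ELOVL6 fall thus depended on the probe set. The one with the small fall was the brightest, at percentile 99.96 of all probe sets in fed fat, and whether its signal still rises with RNA at that level was not tested.

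In liver the same probe set, ELOVL6 a, had log2 signals of 11.67, 12.37 and 13.15 in fed and 12.92, 13.19 and 13.67 in fasted D298 gilts. In N298 gilts they were 10.73, 13.16 and 13.85 fed and 12.89, 13.50 and 13.91 fasted. The lowest value again belonged to fed N298 gilt number 5. The difference was 0.71 ± 0.24 (SE; 95% interval 0.20 to 1.22), with a limma adjusted p of 0.110 and 9 of 12 pairs higher. Without the 4 arrays of replicate number 5 it was 0.59 with an adjusted p of 0.0321, and without fed gilt number 5 alone it was 0.48 with 0.0850, so the call was made under 1 of 15 alternatives. ELOVL6 b, c and d gave 0.37, 0.41 and 0.29, with adjusted p-values of 0.388, 0.481 and 0.492 and intervals of -0.06 to 0.79, -0.15 to 0.96 and -0.11 to 0.68.

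FADS1 forms arachidonate from its precursor, and it fell in fasted liver. Its log2 signal was 10.37, 10.69 and 11.55 in fed and 6.64, 8.17 and 9.96 in fasted livers of D298 gilts, which did not overlap. In N298 gilts it was 8.5, 9.72 and 11.46 fed and 7.52, 9.32 and 9.62 fasted, with overlap. FADS1 fell by 1.72 ± 0.37 (SE) over both genotypes, or 3.29-fold, with a limma adjusted p of 0.00686 and 9 of 12 pairs lower. The call held under all 15 alternatives, between -2.02 and -1.51.

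In fat FADS1 was dim, with a mean signal at percentile 37.4 of all probe sets in fed and 30.4 in fasted gilts. Its log2 signal was 5.68, 6.48 and 6.88 in fed and 4.53, 5.93 and 6.48 in fasted fat over both genotypes. The ranges overlapped, though 11 of 12 pairs were lower. FADS1 fell by 0.55 ± 0.17 (SE; limma adjusted p = 0.0244), and 9 of 15 alternatives kept the call. Without the 4 fat arrays rich in hepatocyte markers it was -0.51 with an adjusted p of 0.133. The call was also lost without replicate number 1, 3, 4 or 5, where the highest adjusted p was 0.0820. With 32 added to every signal before log2 the change was -0.36 and still called.

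FADS2 carries out the first step on the essential acids, and neither of its probe sets was called in either tissue. In liver FADS2 a had log2 signals of 7.80, 9.0 and 9.32 in fed and 5.92, 7.46 and 8.73 in fasted D298 gilts. In N298 gilts they were 6.96, 8.49 and 9.10 fed and 7.20, 8.56 and 9.0 fasted. The fed and fasted ranges overlapped in each genotype. The change was -0.60 ± 0.29 (SE; 95% interval -1.21 to 0.01, limma adjusted p = 0.311), so a fall as large as that of FADS1 lies outside the interval. In fat this probe set was dim too, at percentile 16.2 over all fat arrays. It ran there from 2.16 to 5.91 fed and from 2.17 to 5.89 fasted, with a change of -0.03 (95% interval -0.97 to 0.91), and a change of FADS2 RNA in fat may not be detectable at this signal. FADS2 b was dim in both tissues, at percentile 25.2 in liver and 9.85 in fat, and changed by -0.23 and 0.12. The fat interval of FADS2 b, -1.30 to 1.53, includes a 2-fold change in either direction.

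**Figure D2:**
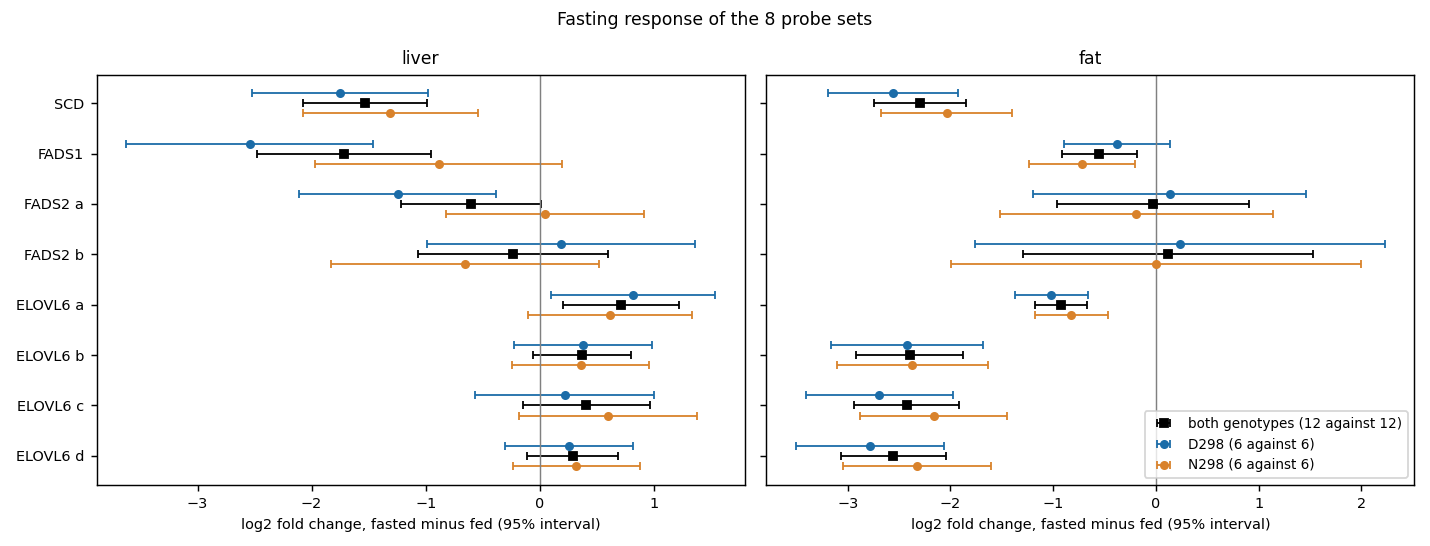
Fasting response (log2 of fasted minus fed, with 95% intervals from limma) of the 8 probe sets in liver and fat, for both genotypes together (black squares) and for D298 (blue) and N298 (orange) gilts. In fat SCD and the 4 ELOVL6 probe sets lie left of 0 from -2.56 to -0.92 over both genotypes, and in liver SCD (-1.53) and FADS1 (-1.72) lie left while the ELOVL6 probe sets lie right, from 0.29 to 0.71.

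The responses of liver and fat were set against each other in 1 model of all 48 arrays. Of the 8 probe sets 4 had a lower response in fat and 1 a higher one, where 7.29% and 8.94% of all probe sets did. The 4 were those of ELOVL6, with differences of -1.63 for a, -2.77 for b, -2.84 for c and -2.84 for d, and limma adjusted p-values from 2.95e-09 to 1.78e-05, and they were called under each of 15 alternatives. The 1 was FADS1, dim in fat, which fell less there, by 1.17 ± 0.41 (SE, limma adjusted p = 0.0470), against a median of 0.12 over all. That call was kept in 6 of 15 alternatives, and adjusted p-values ran from 0.00728 to 0.196 when 1 replicate number or gilt was left out. For SCD the difference was -0.77 (95% interval -1.44 to -0.09, adjusted p = 0.122), and for FADS2 a, dim in fat, 0.57 (-0.52 to 1.66, adjusted p = 0.540).

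The level of each member differed between fed liver and fed fat. All 8 probe sets were called, 5 higher and 3 lower in fat, where 40.1% and 22.0% of all probe sets were, with a median over all of 0.21 on the log2 scale. SCD was 1.29 ± 0.24 (SE) higher in fed fat, and ELOVL6 a, b, c and d were 2.18, 4.12, 4.69 and 4.38 higher. For FADS1 the difference of fat minus liver was -4.01 ± 0.29, for FADS2 a -4.12 ± 0.38 and for FADS2 b -1.49. In fed fat FADS1 stood at percentile 37.4, FADS2 a at 16.8 and FADS2 b at 9.55 of all probe sets. Detection calls were not used here, so how far these dim signals stand above background is unknown, and no fold is given for them. The pair that handles saturated acids thus had the higher signal in fat and the pair that handles polyunsaturated acids the higher signal in liver. After the fast the estimated gap was smaller for each of the 8 probe sets, of which 4 belong to ELOVL6 and those of FADS1 and FADS2 were dim in fat. The share of all probe sets with a smaller gap was not counted. The test of that change is the one on the difference between tissues given above, which called 5. In fasted gilts SCD was 0.52 higher in fat (limma adjusted p = 0.0516, not called, against a median over all of 0.32), and ELOVL6 0.54 to 1.85 higher. FADS1 then gave -2.84 and FADS2 a -3.54. In that state 4 of 8 were called higher and 2 lower, where 44.2% and 22.0% of all were.

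Among the 4 groups of a tissue, the order of means followed feeding before genotype for SCD. In liver the N298 fed mean of 13.41 ± 0.83 (SD, n = 6) and the D298 fed mean of 13.28 ± 0.67 did not differ beyond their spread, and both stood above the N298 fasted mean of 12.10 ± 0.54. The D298 fasted mean of 11.52 ± 0.80 was lowest, but within an SD of its neighbour. In fat the order was D298 fed (14.66 ± 0.18), N298 fed (14.60 ± 0.12), N298 fasted (12.56 ± 0.41) and D298 fasted (12.10 ± 1.21), and the step from fed to fasted alone exceeded the spread. FADS1 in liver fell in smaller steps, from 10.80 ± 0.42 in D298 fed through 9.96 ± 1.15 in N298 fed and 9.07 ± 0.77 in N298 fasted to 8.25 ± 1.20 in D298 fasted, and no step exceeded the larger SD of its neighbours. For ELOVL6 a in fat the 2 fed means were 14.82 ± 0.18 and 14.81 ± 0.13 and the fasted ones 13.99 ± 0.32 in N298 and 13.80 ± 0.49 in D298 gilts. In liver its means ran from 13.47 ± 0.34 in N298 fasted through 13.24 ± 0.30 in D298 fasted and 12.86 ± 1.09 in N298 fed to 12.42 ± 0.58 in D298 fed, with no step beyond the spread.

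No member differed between the MC4R genotypes by the test. For the genotype effect and for its interaction with feeding, limma called 0 of 8 probe sets in each tissue, and 0 of all 23999 (0%). At an unadjusted p under 0.05 the genotype effect counted 1212 probe sets in liver and 1321 in fat, and the interaction 1390 and 1368. Of the members 1 was among the former, ELOVL6 d in liver (0.45 higher in N298, 95% interval 0.05 to 0.85, limma adjusted p = 0.951). Among the latter were FADS1 and FADS2 a, both in liver (limma adjusted p = 0.850 for each). The 4 ELOVL6 probe sets gave N298 minus D298 differences of 0.29 to 0.45 in liver and 0.09 to 0.37 in fat, none of them called. For SCD the difference was 0.36 (95% interval -0.19 to 0.90) in liver and 0.20 (-0.25 to 0.65) in fat. For FADS1 in liver it was -0.01 (-0.78 to 0.75).

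The response to fasting was also read within each genotype. In liver FADS1 fell by 2.54 ± 0.52 (SE, 6 against 6 gilts, limma adjusted p = 0.00986) in D298 gilts, and its change was -0.89 ± 0.52 in N298 gilts (adjusted p = 0.490). SCD fell by 1.75 in D298 livers (adjusted p = 0.0123) and its change was -1.31 in N298 livers (adjusted p = 0.0864). The brighter FADS2 probe set gave -1.25 and 0.05, with adjusted p-values of 0.166 and 0.978. Thus 2 of 8 probe sets were called lower in D298 livers and 0 in N298 livers, where 0.871% and 0.704% of all were. A call in 1 genotype alone does not show a difference, and the test of the difference gave 1.66 for FADS1 (95% interval 0.13 to 3.19, limma adjusted p = 0.850) and 1.29 for FADS2 a (0.07 to 2.52, adjusted p = 0.850). In fat the SCD change was -2.56 in D298 and -2.04 in N298 gilts, and the ELOVL6 changes were -2.79 to -1.02 and -2.37 to -0.82. These 5 of 8 were called lower in each genotype, where 6.08% and 6.43% of all were. FADS1 gave -0.38 and -0.72 in fat, not called within either genotype.

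How far the members' responses differ from each other was tested within pairs of gilts, with each gene by its brightest probe set and an exact sign-flip permutation test (2-sided, 12 pairs, 12 tests). In liver the SCD response did not differ detectably from that of FADS1 (0.18, adjusted p = 0.612), and SCD fell more than FADS2, with a difference of -0.93 (adjusted p = 0.0286). FADS1 fell more than FADS2, with a difference of -1.12, in 11 of 12 pairs (exact test, adjusted p = 0.00293). Against ELOVL6 the liver difference was -2.25 for SCD, -2.43 for FADS1 and -1.31 for FADS2 (exact adjusted p-values 0.00195, 0.00293 and 0.00419). In fat SCD differed by -1.75 from FADS1 (exact adjusted p = 0.00195). FADS1 was dim there, and how far its signal follows its RNA at that level was not tested. FADS2 was too dim in fat for its response to be set against the others there, so the differences from it are not given as results. For SCD against ELOVL6 in fat the answer depended on the probe set: the difference was -1.38 against ELOVL6 a (exact adjusted p = 0.00195), while against ELOVL6 d it was 0.26 (exact adjusted p = 0.205). The same choice moved FADS1 minus ELOVL6 in fat from 0.37 (exact adjusted p = 0.0638) to 2.01 (exact adjusted p = 0.00293).

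Some members also varied together from gilt to gilt within a feeding state. Pearson correlations were computed for the 6 pairs of genes in the 12 fed and the 12 fasted gilts of each tissue, a family of 24 with permutation p-values. Each gene was taken by its brightest probe set, which is a for ELOVL6. In fat 4 of 6 pairs had a positive r in fed and 3 of 6 in fasted gilts, with a lowest r of -0.07 and -0.19. Only SCD with ELOVL6 was called there, in both states. In fasted fat SCD and ELOVL6 gave r = 0.86 (permutation p = 8.00e-05, adjusted p = 0.00192) and Spearman's rho 0.83 (permutation p = 0.00140, adjusted 0.0336). Without the 2 gilts farthest from the median of SCD r was 0.83. Within replicate numbers r was 0.85, which rests on 6 differences between the 2 gilts of a number, not on 12 gilts. In fed fat they gave r = 0.79 (permutation p = 0.00241, adjusted p = 0.0193) with rho 0.71 (permutation p = 0.0133, adjusted 0.106), and r = 0.62 without the 2 gilts. So gilts with more SCD signal in fat had more ELOVL6 a signal in both states.

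In liver all 6 pairs of genes had a positive r, from 0.39 to 0.76 in fed and from 0.38 to 0.84 in fasted gilts. Of these 3 were called in fed and 2 in fasted livers. In fed livers the pairs not called lost their r without the 2 gilts farthest from the median of the first gene. It was then -0.005 for SCD with FADS1, 0.03 for FADS1 with ELOVL6 and 0.008 for FADS2 with ELOVL6. FADS1 and FADS2 had the highest r in both states. In fasted livers r was 0.84 (permutation p = 0.000530, adjusted p = 0.00636) with rho 0.76 (permutation p = 0.00553, adjusted 0.0664). There r was 0.70 without the 2 gilts farthest from the median of FADS1, and 0.90 within replicate numbers (again 6 differences). In fed livers r was 0.76 (permutation p = 0.00420, adjusted p = 0.0252) with rho 0.61 (permutation p = 0.0399, adjusted 0.192), and r = 0.42 without 2 gilts. SCD and FADS1 gave r = 0.71 in fasted livers (permutation p = 0.0103, adjusted p = 0.0412) with rho 0.66 (permutation p = 0.0237, adjusted 0.142), and r = 0.57 without 2 gilts. In fed livers SCD with FADS2 (r = 0.72, permutation p = 0.00829, adjusted p = 0.0398, rho 0.50 with permutation p = 0.0990) and SCD with ELOVL6 (r = 0.69, permutation p = 0.0131, adjusted p = 0.0449, rho 0.43 with permutation p = 0.169) rested on few gilts, since r without 2 gilts was 0.17 and 0.06. All values of 1 gilt share an array, so its overall signal enters both sides of each correlation. The same gene in liver and fat of a gilt gave no correlation that passed over 8 tests; the highest was ELOVL6 in fasted gilts (r = 0.71, permutation p = 0.0126, adjusted p = 0.101, rho 0.64 with permutation p = 0.0305).

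**Figure D3:**
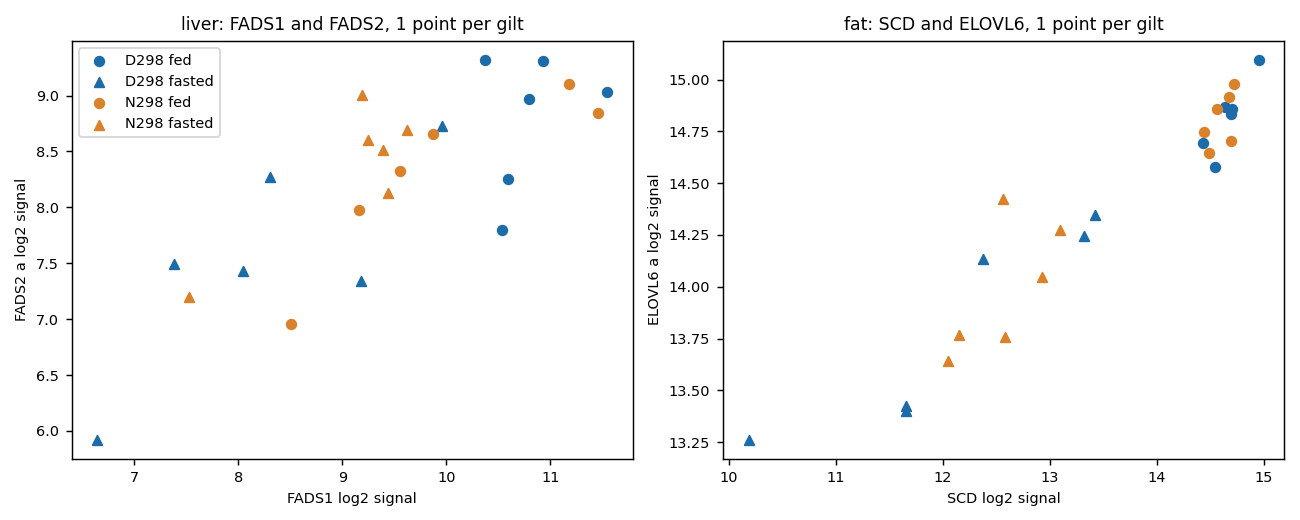
FADS2 against FADS1 in liver and ELOVL6 against SCD in fat, as log2 signals of the brightest probe sets; each point is 1 gilt, circles are fed and triangles fasted, with D298 in blue and N298 in orange. Within fasted gilts r was 0.84 for the liver pair and 0.86 for the fat pair, and in fat the fed gilts form a separate cluster at high signals.

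The genes most like each member were those with the highest Pearson r over the 24 arrays of a tissue among 6761 other genes, which mixes fed and fasted gilts and is given as a description. In fat SCD was most like CS, the citrate synthase (r = 0.92), CEACAM16 (0.92) and SLC25A39 (0.91), and least like the cathepsin CTSV (-0.89). ELOVL6 in fat was most like MPC1, a subunit of the mitochondrial pyruvate carrier (0.90), ECI1, an isomerase of unsaturated acid oxidation (0.90), and CS (0.90), and least like JADE2 (-0.87). SCD and ELOVL6 were closer to each other than to any of these, with r = 0.96. Once group and replicate means were removed their r was 0.84, close to the 0.81 of SCD with CS. It was then 0.62 for SCD with CEACAM16 and 0.36 with SLC25A39. For ELOVL6 it was 0.75 with MPC1, 0.61 with ECI1 and 0.68 with CS. In liver SCD was most like FDFT1, the squalene synthase (0.89), ACSL4, an acyl-CoA synthetase (0.88), and KLF9 (0.86), and least like the lipase activator ABHD5 (-0.86). FADS1 in liver was most like LOC100515394 (0.87), DECR1, a reductase of unsaturated acid oxidation (0.85), and the epoxide hydrolase EPHX1 (0.83), and least like SET (-0.82).

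FADS2 in liver was most like the adenosine kinase ADK (0.83), the nucleoside carrier SLC29A1 (0.79) and FMO5 (0.79), and least like OST4 (-0.78). ELOVL6 in liver was most like PEX3, which takes part in peroxisome formation (0.77), the glycolytic enzyme GPI (0.76) and DNAJC19 (0.74), and least like MCL1 (-0.84). FADS1 and FADS2 in liver correlated at 0.80 over the same 24 arrays. For the dim signals in fat the nearest genes were ASIP (0.79), C14H22orf39 (0.73) and CAMK2N1 (0.73) for FADS1, with CMTM6 least alike (-0.82). For FADS2 in fat they were CADPS2 (0.62), SPINT1 (0.62) and CSTF3 (0.60), with CCDC25 least alike (-0.73).

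The genes around the members were read from fixed lists, each gene by its brightest probe set. Of 6765 genes 3.10% were called lower and 4.09% higher in fasted liver, and 18.9% and 15.3% in fasted fat, with medians of 0.00 and 0.01. Upstream, in palmitate synthesis, 4 of 6 measured genes fell and 1 rose in liver (median -1.66), and 6 of 6 fell in fat (median -2.54). Fatty acid synthase (FASN) changed by -3.22 in liver and -3.38 in fat, while its 3 other probe sets ran from -2.64 to -0.71 in liver and from -4.69 to -1.90 in fat. The acetyl-CoA synthetase ACSS2 changed by -2.27 and -2.61. Acetyl-CoA carboxylase (ACACA) changed by -1.99 and -2.47, though its other probe set gave -0.41 and -0.07. Malic enzyme (ME1) changed by -1.33 in liver and -2.23 in fat, and PGD, a source of NADPH, fell by 1.56 in fat. The citrate carrier SLC25A1, which like ELOVL6 did not fall in liver, rose there by 0.44 and changed by -2.89 in fat.

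The elongation cycle needs reductases and a dehydratase after ELOVL6, and HSD17B12, 1 of its reductases, fell by 1.64 in fat, with -0.17 in liver (limma adjusted p = 0.477). HACD3, a dehydratase, fell by 0.31 in fat, so 2 of 3 measured partners fell there and 0 of 3 in liver (medians -0.31 and -0.17). The 3 other HACD3 probe sets gave -0.33, -0.30 and 0.10 in fat and were not called, so that count rests on the brightest one. Desaturases draw electrons from cytochrome b5. Of the listed cytochrome b5 and reductase genes 3 of 3 measured fell in fat, with -0.54 for CYB5A, -0.58 for CYB5R1 and -1.46 for CYB5B (median -0.58). Which of these serve the desaturases was not tested. In liver CYB5R1 fell by 0.57 and CYB5A rose by 0.25 (median of the 3 genes -0.15). None of the 2 other elongases measured, ELOVL1 and ELOVL3, was called in either tissue.

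Of 5 other desaturases and their kin that were measured, 2 rose in fat and 0 fell (median 0.31), and 1 fell in liver (median -0.20). SCD5, a second stearoyl-CoA desaturase, rose by 0.94 ± 0.20 (SE) in fat (limma adjusted p = 0.00137), where SCD fell by 2.30, and gave 0.05 in liver. FAXDC2, a related hydroxylase, rose by 0.31 in fat and fell by 0.71 in liver. FADS3 and ELOVL5 were not analysed here.

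Among 15 measured regulators 2 rose and 2 fell in each tissue, with medians of -0.08 in liver and 0.01 in fat. SREBF1, which encodes SREBP-1, fell by 1.27 ± 0.25 (SE) in fat (limma adjusted p = 0.000756) and gave 0.48 ± 0.18 in liver (adjusted p = 0.136). INSIG1, which holds SREBP in the endoplasmic reticulum and is itself an SREBP target, changed by -1.31 in liver and -1.05 in fat. INSIG2 rose by 1.09 in liver and 0.30 in fat, and SCAP, the escort of SREBP, rose by 0.55 in liver. SREBF2 fell by 0.70 in liver, and the oxysterol receptor NR1H3 rose by 0.30 in fat.

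**Figure D4:**
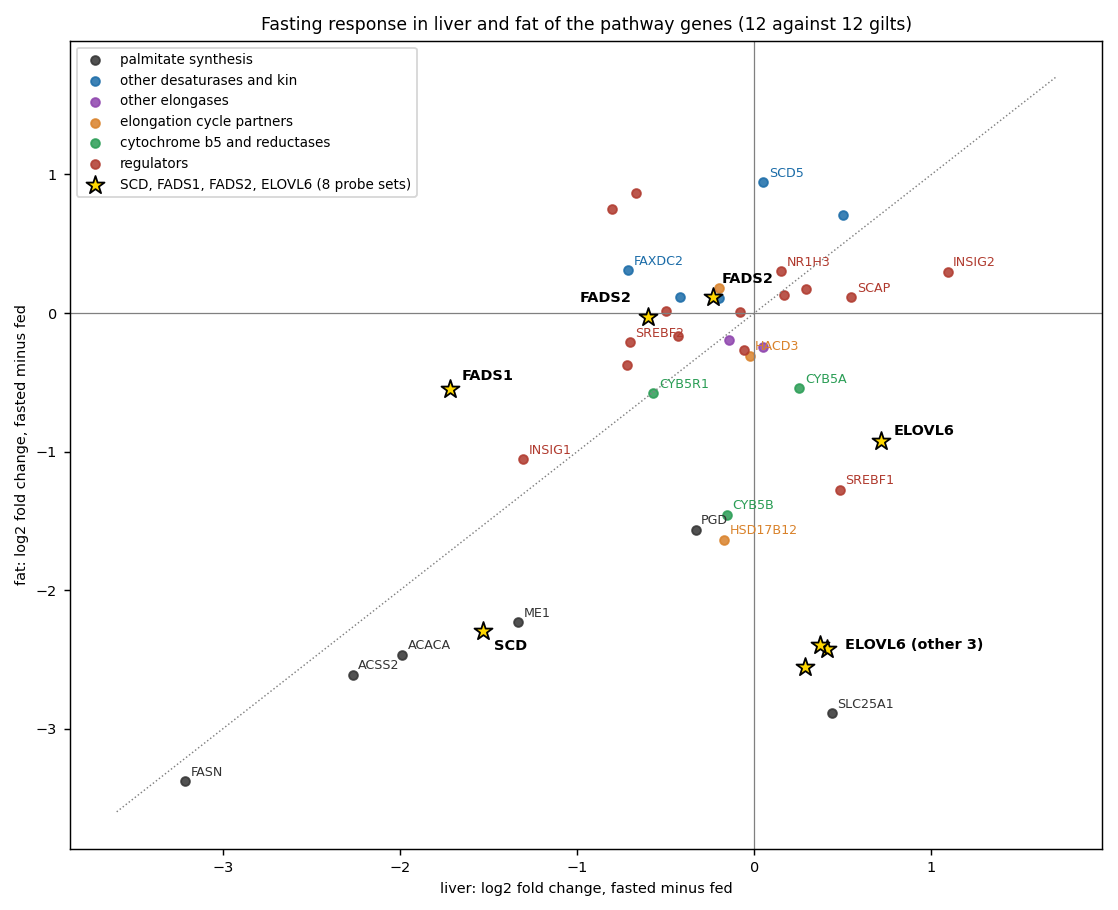
Fasting response in fat against that in liver (log2 of fasted minus fed, 12 against 12 gilts) for the members (stars, 8 probe sets) and for genes of 6 pathway lists, 1 point per gene; names mark the members and the list genes called in at least 1 tissue, and the dotted line marks equal responses. SCD lies near the palmitate synthesis genes ACACA and ME1, and the ELOVL6 probe sets lie at the lower right with SLC25A1 and SREBF1.

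Some markers of cell types moved with fasting in fat, where 18.9% of all genes fell and 15.3% rose. Of 10 endothelial markers 6 rose, and the list mean ran from 9.48 to 10.21 in fed and from 10.02 to 10.66 in fasted fat. Of 7 fibroblast markers 4 fell and 1 rose (11.51 to 12.34 fed, 11.02 to 11.99 fasted). Of 10 adipocyte markers 1 rose and 2 fell, near those shares, with list means of 11.47 to 11.96 fed and 11.39 to 11.86 fasted. The part of these shifts in the responses of SCD, FADS1 and ELOVL6 in fat was not tested. In liver 0 of 13 hepatocyte markers were called, where 3.10% of all genes fell and 4.09% rose. Their list means were 14.62 to 15.11 fed and 14.59 to 15.00 fasted.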

How the data were processed

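Each array gave 1 signal per probe set. The deposited intensities are linear MAS5 signals made with the affy package, per the submitters' processing notes, and had been scaled to a trimmed mean of 500. Versions are not given in the sources used here. Of 24123 probe sets, 124 controls were left out, and log2 was taken with nothing added. Names came from the array annotation, which gave 1 symbol to 10069 probe sets, several to 198 and none to 13732. A gene was represented by its brightest probe set (6765 genes).

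Per tissue, limma 3.58.1 (R 4.3.3, lmFit, eBayes with trend) fitted the 4 groups with a fixed term for the replicate number (6 values). The term was used because a blocked layout is described in the design text. No label says that this number marks the block, so the pairing of fed and fasted gilts by number is assumed. Tests were 2-sided, with Benjamini-Hochberg adjustment over 23999 probe sets. The tissues were compared on 48 arrays with the gilt as random block (correlation 0.05). Gilts were joined by genotype, feeding and number; among residuals, 22 of 24 arrays were closest to the other tissue's array with the same number (r 0.02 to 0.06). Deviations of same-numbered arrays of different groups correlated at -0.06 to 0.07 in liver and -0.07 to 0.15 in fat (medians 0.01 and 0.02), with 0 and 4 of 36 pairs over 0.1. Permutation tests used SciPy 1.17.1 with 100000 resamples, or were exact. Genes named beside the members are up to 4 called ones with the smallest p per list and tissue, a few fixed by name, and the 3 most and 1 least alike. Members and lists were chosen with earlier results of these data known. On simulated noise with 50 probe sets changed per fold size, the liver model recovered 62% of 2-fold and 90% of 4-fold changes. The fat model recovered 62% and 84%, and false calls numbered 4 in liver and 7 in fat. Far fewer probe sets changed there than were called in real fasted fat, so these rates are not the power of the real tests. No 2 arrays were identical. Labels do not say more of how gilts were kept apart, so p-values measure the spread between these gilts. The number of arrays limits the precision.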

Additional observations from a re-analysis of the deposited data

Results flagged for a closer look

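In 8 of 64 groups of 6 arrays 1 member value stood far from the other 5 by Dixon's criterion, which chance alone meets in about 1 group in 20. Fed N298 liver number 5 was low in SCD, at 11.8 on the log2 scale against 13.2 for its nearest neighbour, and in ELOVL6 a, at 10.7 against 13.0. FADS1 was low in fasted N298 liver number 6, at 7.52 against 9.19. The dim probe set FADS2 b was low in fasted D298 liver number 2 (3.73) and fasted N298 fat number 4 (1.03). FADS2 a was low in fed D298 fat number 6, at 2.16. Of the other ELOVL6 probe sets, ELOVL6 d was low in fasted D298 liver number 2 (8.09) and ELOVL6 b in fed D298 fat number 1 (12.6).

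The fasting response differed between tissues by the test of that difference for FADS1, dim in fat, by 1.17 on the log2 scale (fat minus liver). It also differed for the ELOVL6 probe sets a (-1.63), d (-2.84), c (-2.84) and b (-2.77).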

How the results depend on the processing

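Called results that kept direction and call under every alternative run were the falls of SCD and FADS1 in liver (SCD -1.74 to -1.28), of SCD in fat (-2.43 to -2.07) and of the 4 ELOVL6 probe sets in fat, and the tissue difference of ELOVL6. Fits without certain arrays, with muscle markers or with another ELOVL6 probe set were chosen after seeing the data. Without the replicate block the fall of FADS1 in fat lost its call (-0.55, limma adjusted p = 0.0608), and the block changed no other member's call; it was also lost without the fat arrays rich in hepatocyte markers (-0.51), leave-outs gave -0.62 to -0.46, and 32 added before log2 gave -0.36, still called. The FADS1 tissue difference lost its call with quantile normalization (1.01), median-centring (1.03), eBayes without trend (1.17, adjusted p = 0.0608) and without those fat arrays (1.23), with leave-outs from 0.94 to 1.57. With 32 added before log2, FADS1 minus ELOVL6 in fat was 0.56 and FADS2 minus ELOVL6 0.93, both then called. With ELOVL6 d they were 2.01 and 2.53, and SCD minus ELOVL6 turned to 0.26. FADS2 was too dim in fat for its differences to be read as results, called or not. The uncalled liver response of ELOVL6 a ran from 0.59 to 0.81 when replicates were left out, was called at 0.59 without number 5, and was 0.48 without the fed N298 array of that number. Counts over all probe sets were 667 to 1104 for liver fasting (667 without number 3), 4761 to 6164 for fat fasting, 0 to 2 for genotype in liver (1 without the replicate block and 1 with it random) and 0 to 4 for the interaction in fat. The cause of these shifts was not tested.

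Uncalled values near 0 changed sign. In the liver interaction, ELOVL6 b was 0.013 with quantile normalization and 0.10 centred, and ELOVL6 d -0.026 with array weights. FADS2 a in fat gave 0.011 with 32 added (fasting). In fat FADS2 b gave -0.085 (fasting), 0.11 (genotype) and 0.022 (interaction) with array weights, and -0.12 (fasting) and 0.18 (genotype) without the fat arrays rich in hepatocyte markers. The fat interaction of ELOVL6 b was -0.26 without those arrays and -0.17 with muscle markers. Leave-outs spanned, for fasting in fat, -0.12 to 0.54 (FADS2 b) and -0.44 to 0.28 (FADS2 a). For genotype they spanned -0.28 to 0.20 (FADS1, liver), -0.22 to 0.033 (FADS1, fat) and -0.61 to 0.49 (FADS2 b, fat). For the liver interaction they spanned -0.041 to 0.95 (SCD), -0.87 to 0.15 (ELOVL6 a), -0.26 to 0.37 (ELOVL6 d), -0.36 to 0.82 (ELOVL6 c) and -0.46 to 0.36 (ELOVL6 b). For the fat interaction they spanned -0.40 to 0.48 (ELOVL6 b), -1.24 to 0.82 (FADS2 b) and -0.70 to 0.21 (FADS2 a), and for the tissue difference of FADS2 b -0.0087 to 0.63. Keeping brighter probe sets alone leaves out FADS1 and FADS2 in fat and FADS2 b in liver, which then have no value.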

Other observations

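Genes that use or handle the members' products were read in the same way, where 18.9% of all genes fell and 15.3% rose in fat, and 3.10% and 4.09% in liver. Of 11 measured acyltransferases of glyceride and phospholipid synthesis 6 fell and 1 rose in fat (median -0.40), and 1 fell in liver (median -0.06). Medians over all genes were 0.01 and 0.00. By the test of the difference between tissues 4 of the 11 had a lower response in fat, where 7.29% of all probe sets did. DGAT2, which completes triglyceride, fell by 1.83 in fat, AGPAT1 by 1.28, LPCAT3 by 0.70 and DGAT1 by 0.64, and DGAT1 fell by 0.49 in liver. The other DGAT1 probe set gave 0.08 in fat and -0.03 in liver, neither called. Of 7 genes of acyl-CoA formation and transport 2 rose and 2 fell in fat (median -0.01) and 2 fell in liver (median 0.00). ACSL1 fell by 1.24 and DBI by 0.19 in fat, where ACSL4, the synthetase that prefers arachidonate, rose by 0.48 and ACSL5 by 0.34. In liver ACSL4 fell by 1.68 and ACSL3 by 0.57.

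Of 8 measured eicosanoid genes, which use the polyunsaturated acids downstream of FADS1, 2 rose and 1 fell in fat (median 0.23) and 0 were called in liver (median 0.00). The prostaglandin E synthase PTGES rose by 0.94 and ALOX5AP by 0.61 in fat, and the prostaglandin D synthase PTGDS fell by 1.07. Of 6 peroxisomal genes 5 fell in fat (median -0.43) and 2 rose in liver (median 0.02). In fat ECI2 fell by 1.26, DECR2 by 0.47, HSD17B4 by 0.40 and SCP2 by 0.32, and in liver the carrier ABCD3 rose by 1.01 and the thiolase ACAA1 by 0.53. The other ECI2 probe set gave 0.11 in fat (limma adjusted p = 0.717).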
